A study of Mus musculus with 8 samples.

Results

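The 6 keratin genes of liver and bile duct, Krt7, Krt8, Krt18, Krt19, Krt20 and Krt23, were followed by name through 8 mouse liver RNA libraries. All 6 were found among the 24421 gene symbols of the table, and all 6 passed the filter on low counts, Krt20 through its CAPZ_KO reads alone. Each was compared between 4 libraries labelled CAPZ_KO and 4 labelled WT. Both groups were adult C57BL/6N mice of 8 to 10 weeks of age with floxed alleles of Capzb, which encodes one chain of the capping protein found on the barbed ends of actin filaments. CAPZ_KO animals also carried Albumin-CreERT2 and received tamoxifen, which the protocol gives as 5 daily injections from 4 to 6 weeks of age. WT animals were either Capzb-fl/fl mice given tamoxifen without Cre, or Albumin-CreERT2;Capzb-fl/fl mice that were left uninjected. Which kind each WT library is cannot be read from the labels, so that tamoxifen exposure and deletion cannot be told apart. The albumin promoter drives the recombinase in hepatocytes, so that other liver cells keep their floxed gene. Nothing in the labels says whether each replicate is a separate animal, and the p-values cover the spread seen among these libraries.

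Keratins build the intermediate filaments of epithelial cells, and each filament needs a type I and a type II chain. Keratin 8 (type II) and keratin 18 (type I) are the keratins of adult hepatocytes, where they protect the cell from mechanical and toxic stress. Cholangiocytes, the cells that line bile ducts, add keratin 7 (type II) and keratin 19 (type I), which are also made by the mesothelium on the liver surface. Keratin 20 is a type I chain of intestinal and urothelial surface cells, and keratin 23 is a type I chain described in the ductular reactions of injured mouse and human liver.

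Total counts per library ranged from 12060350 to 18916315. Capzb, which checks the labels, had a mean of 120.2 ± 13.4 CPM in WT and 72.5 ± 6.80 CPM in CAPZ_KO (n = 4 each, ± SD), and the groups did not overlap (log2 fold change −0.73, edgeR adjusted p = 0.00134; −0.10 and 0.442 with library sizes alone). CPM here are counts scaled to a common library size after TMM adjustment, which corrects for the few very abundant genes that take reads from the rest. Hepatocyte markers were abundant throughout, with the 11 markers summing to 186989 to 233682 CPM in WT and to 50705 to 75174.5 CPM in CAPZ_KO. Of the 10 tested 8 fell and 0 rose, where 19.0% of all genes tested were called lower and 22.4% higher. Reads of the X-linked Xist and of Y-linked genes showed that WT replicate 4 and CAPZ_KO replicate 4 were from females (5419 and 4067 Xist reads, 0 Y-linked reads), while the other 6 libraries held 0 to 6 Xist reads.

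The genes lie in the mouse keratin clusters of chromosomes 15 and 11 (GRCm38, GENCODE vM21). Krt8 (chr15:101996698-102004482, minus strand) and Krt18 (chr15:102028180-102032027, plus strand) stand side by side and are read away from each other, with 23697 bases between them. Krt20 (chr11:99428403-99438150) and Krt23 (chr11:99477974-99493137) are also neighbours, both on the minus strand and 39823 bases apart. Krt7 (chr15:101411043-101430313, plus strand) and Krt19 (chr11:100140810-100148665, minus strand) lie farther along the same clusters. Promoter sequences were held by RefSeq (GRCm38.p6) for 5 of the 6 genes. Those of the 3 genes that rose are shown, since 2 of them are neighbours that moved together and Krt20 was nearly silent in WT liver. The window searched was the 250 bases before the RefSeq start, which is not the GENCODE start given above. Of that window 140 bases lie inside the GENCODE gene for Krt8, 36 for Krt18, 17 for Krt23 and all 250 for Krt7, and none for Krt20. The bases outside the gene are printed, 5′ to 3′ on the gene's own strand, at chr15:102004483-102004592 for Krt8, chr15:102027966-102028179 for Krt18 and chr11:99438154-99438403 for Krt20. Capitals mark matches to 5 short motifs searched on both strands.
Krt8: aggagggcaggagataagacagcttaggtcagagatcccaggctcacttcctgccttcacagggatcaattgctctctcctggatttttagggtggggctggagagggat
Krt18: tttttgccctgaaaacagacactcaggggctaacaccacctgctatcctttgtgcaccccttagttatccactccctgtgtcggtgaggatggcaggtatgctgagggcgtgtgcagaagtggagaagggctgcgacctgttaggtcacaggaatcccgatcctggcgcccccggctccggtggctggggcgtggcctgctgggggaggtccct
Krt20: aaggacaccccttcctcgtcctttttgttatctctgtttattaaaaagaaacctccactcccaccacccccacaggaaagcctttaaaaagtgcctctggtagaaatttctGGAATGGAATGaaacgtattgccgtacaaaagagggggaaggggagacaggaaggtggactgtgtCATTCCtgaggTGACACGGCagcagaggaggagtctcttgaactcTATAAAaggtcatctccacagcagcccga
The motifs were the TATA box (TATAAA), the AP-1 site (TGANTCA), the TEAD site (GGAATG), the Sp1 site (GGGCGG) and the core of the antioxidant response element (TGACNNNGC). Krt20 held a TATA box 29 bases before its RefSeq start, a TGACNNNGC match 63 bases before it, and 3 TEAD matches, of which 2 overlap by 1 base. At least 1 TEAD match was present in 12.6% of 27025 promoter windows of this length and at least 3 in 0.0814%. A TATA box was present in 13.0% and a TGACNNNGC match in 10.1%. The Krt8, Krt18 and Krt23 windows held none of the 5 motifs in these letters, and the Krt7 window held 4 Sp1 matches, a motif found at least 3 times in 8.40% of windows. Binding was not measured.

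Krt8 and Krt18, the hepatocyte pair, rose together. Krt8 stood at 229.1, 153.6, 177.4 and 106.1 CPM in WT replicates 1 to 4, and at 1547, 1479.9, 1695 and 1067 CPM in CAPZ_KO replicates 1 to 4. Krt18 stood at 308.2, 150.2, 182.2 and 127.1 CPM in WT and at 1522, 1562, 1735 and 959.4 CPM in CAPZ_KO. In both genes the lowest CAPZ_KO library, replicate 4, lay far above the highest WT library, replicate 1. Krt8 rose by 3.12 ± 0.258 (SE) on the log2 scale, which is 8.69-fold (edgeR adjusted p = 2.79e-05). Krt18 rose by 2.91 ± 0.308 (SE), which is 7.53-fold (edgeR adjusted p = 9.50e-05). For each, permuting the libraries (exact, two-sided, on log2(CPM + 0.5)) gave p = 0.0286, and no smaller p is possible with 70 arrangements.

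Krt20 was also called higher, but it passed the filter on low counts only through its CAPZ_KO reads. Of the other 5 keratins 2 rose and 0 fell, where 41.4% of all genes tested were called in either direction, 22.4% of the 12985 genes tested were called higher and 19.0% lower (edgeR adjusted p under 0.05). The groups did not overlap in Krt8, Krt18 and Krt20, with CAPZ_KO above, where 40.3% of tested genes had no overlap and 22.1% had every CAPZ_KO library above. These shares are high enough that a rise alone does not set a keratin apart from the rest of the table. The median change of all tested genes was −0.003, a value that TMM scaling holds near 0. With library sizes alone it was 0.62, and Krt8 and Krt18 had 3.76 and 3.56. Other genes rose as much as the pair, such as Dusp10 by 3.31 and Spp1 by 4.32. The rank of the pair by size was not tested. In these bulk libraries more cells of a type and more RNA per cell cannot be told apart.

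**Figure D1:**
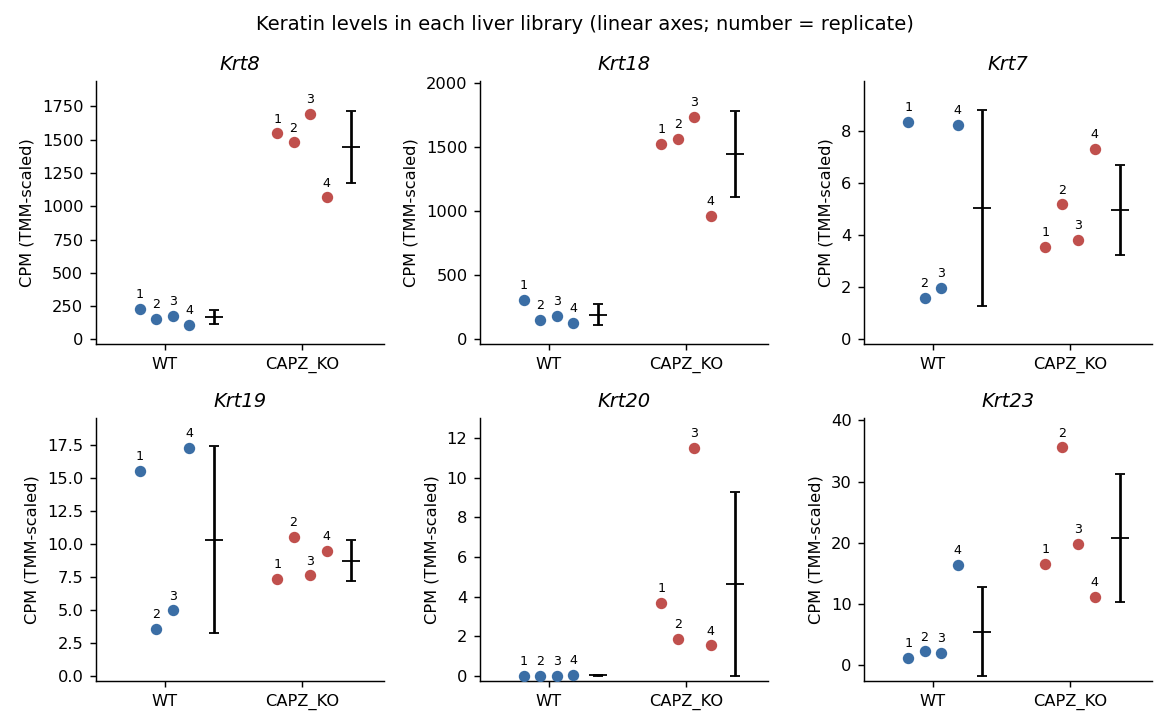
Level of each keratin in CPM (TMM-scaled, linear axes) in the 4 WT libraries (blue) and the 4 CAPZ_KO libraries (red), numbered by replicate, with black bars for the group mean and SD. Krt8, Krt18 and Krt20 do not overlap between groups, whereas WT replicates 1 and 4 hold the highest Krt7 and Krt19 values of all 8 libraries.

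The balance between the partners of the hepatocyte pair was compared next, because type I and type II chains pair in the filament. For each Krt8 read there were 1.35, 0.978, 1.03 and 1.198 Krt18 reads in WT replicates 1 to 4, and 0.984, 1.06, 1.02 and 0.8996 in CAPZ_KO replicates 1 to 4. The groups overlap, with the highest ratios in WT replicates 1 and 4. The log2 ratio of Krt18 to Krt8 averaged 0.17 (SD 0.21) in WT and −0.02 (SD 0.10) in CAPZ_KO over 4 libraries each, a difference of −0.19 with p = 0.229 in an exact permutation test (adjusted p = 0.305 over the 8 ratios tested). Leaving out any 1 library gave differences from −0.26 to −0.10. The difference between the rises of the pair was within the spread of the libraries.

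**Figure D2:**
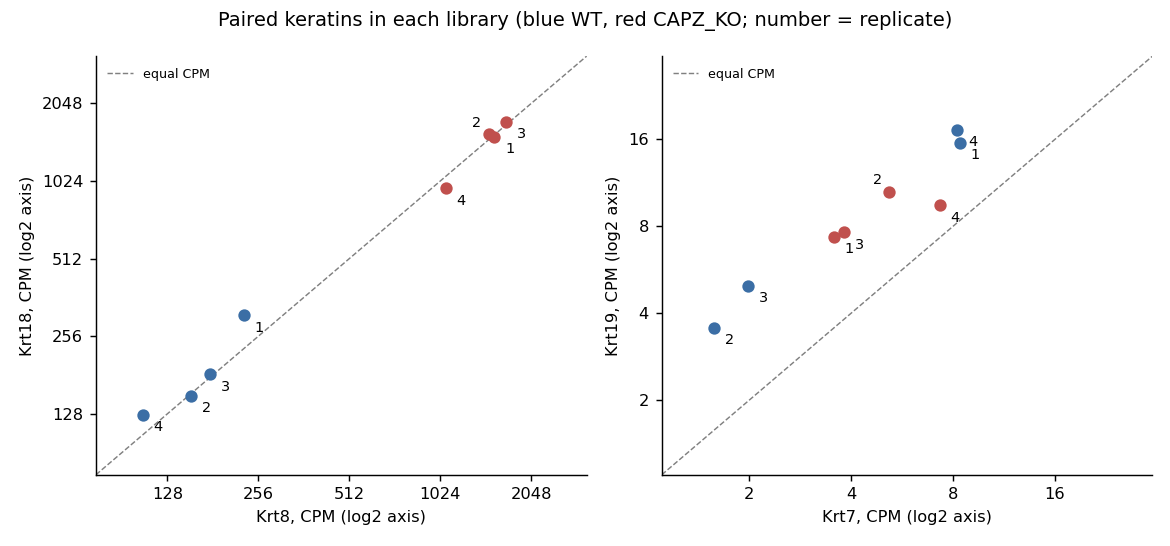
Krt18 against Krt8 (left) and Krt19 against Krt7 (right) in CPM on log2 axes, one point per library, with a dashed line at equal CPM. The Krt8 and Krt18 points lie along the line from about 106.1 to 1695 CPM of Krt8, while the Krt7 and Krt19 points lie above it and the WT libraries span a wider range than the CAPZ_KO libraries.

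None of the tested genes next to the pair rose. Eif4b, a translation initiation factor and the next gene in the table beyond Krt18, fell from a mean of 352.0 to 205.5 CPM (log2 fold change −0.78, edgeR adjusted p = 0.00408). Tns2, a focal adhesion protein one gene farther on, had 0.09 (edgeR adjusted p = 0.779). On the Krt8 side, the skin keratin gene Krt78 had no read in any library, and Krt79 had 11 reads in all WT and 5 in all CAPZ_KO libraries.

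Krt7 and Krt19, the pair of the bile duct, did not pass the test. Krt7 stood at 8.37, 1.58, 1.99 and 8.23 CPM in WT replicates 1 to 4, and at 3.56, 5.18, 3.81 and 7.31 CPM in CAPZ_KO. Krt19 stood at 15.6, 3.55, 4.97 and 17.2 CPM in WT and at 7.34, 10.6, 7.62 and 9.46 CPM in CAPZ_KO. WT replicates 1 and 4 were high and WT replicates 2 and 3 low for both genes, and every CAPZ_KO library fell between those extremes. The log2 fold change was −0.01 ± 0.535 for Krt7 and −0.23 ± 0.460 for Krt19 (SE, edgeR adjusted p = 0.994 and 0.713). Leaving out 1 library at a time moved Krt7 between −0.32 and 0.36 and Krt19 between −0.53 and 0.15, with positive values for both without WT replicate 1 or WT replicate 4. The sign of these changes is therefore not determined. The SD within WT was 74.7% of the mean for Krt7 and 68.4% for Krt19.

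The pair held to each other more closely than to the groups. The ratio of Krt7 to Krt19 reads was 0.538, 0.444, 0.400 and 0.477 in WT replicates 1 to 4, and 0.485, 0.491, 0.5 and 0.773 in CAPZ_KO. CAPZ_KO replicate 4 was the one library outside the narrow range of the others. The difference of the log2 ratio between groups was 0.20 with p = 0.229 (exact permutation test, adjusted p = 0.305 over 8 ratios).

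Other markers of cholangiocytes did rise in the same libraries. Of 14 such markers that are not keratins, 12 were tested. Of these 11 rose and 0 fell, beside 22.4% called higher and 19.0% lower among all tested genes. Their median was 3.37 on the log2 scale, beside −0.003 for all tested genes. Cftr and Ehf, named for their low counts, had 4, 1, 0 and 2 and 4, 8, 3 and 8 reads in WT. These 2 passed the filter only through their CAPZ_KO reads and could hardly have been tested without rising. Slc5a1 and Muc1, with 6 to 13 and 8 to 13 reads in the WT libraries, passed it partly through CAPZ_KO. The count and the median rest in part on such genes. Epcam, an epithelial adhesion molecule, was at 1.29, 0.658, 0.923 and 1.30 CPM in WT replicates 1 to 4 and at 10.1, 11.4, 7.32 and 4.35 CPM in CAPZ_KO. Its groups do not overlap, and it rose by 3.005 (edgeR adjusted p = 0.000179). Sox9, a transcription factor of duct cells, was at 0.644 to 1.99 CPM in WT and 10.3 to 23.6 CPM in CAPZ_KO. Bicc1, an RNA-binding protein of ducts and tubules, rose by 3.07 and Cd24a, a surface glycoprotein, by 4.18 (edgeR adjusted p = 8.57e-05 and 0.00011). Sctr, the secretin receptor, had 0 reads in WT. Spp1, a secreted phosphoprotein, was the largest single part of the summed level of this list, at 25.5 to 36.6 CPM in WT and 318.0 to 1010.4 CPM in CAPZ_KO.

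The ratios of keratin to Epcam put this contrast in one number per library. For each Epcam read there were 12.1, 5.40, 5.38 and 13.3 Krt19 reads in WT replicates 1 to 4, and 0.724, 0.926, 1.04 and 2.18 in CAPZ_KO. Every WT ratio exceeded every CAPZ_KO ratio, and the log2 ratio differed by −2.42. The ratio of Krt7 to Epcam differed by −2.22, also without overlap. Both had p = 0.0286 in the exact permutation test, the smallest it can give, and an adjusted p of 0.0571 over 8 ratios, which misses 0.05. The same p, adjusted p and lack of overlap held for the ratios to Krt8, where Krt7 differed by −2.91 and Krt19 by −3.11 on the log2 scale. Epcam was picked with its rise known, so that these ratios describe these libraries. The ratios to Krt8 largely restate the rise of Krt8 given above, and are no separate support.

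**Figure D3:**
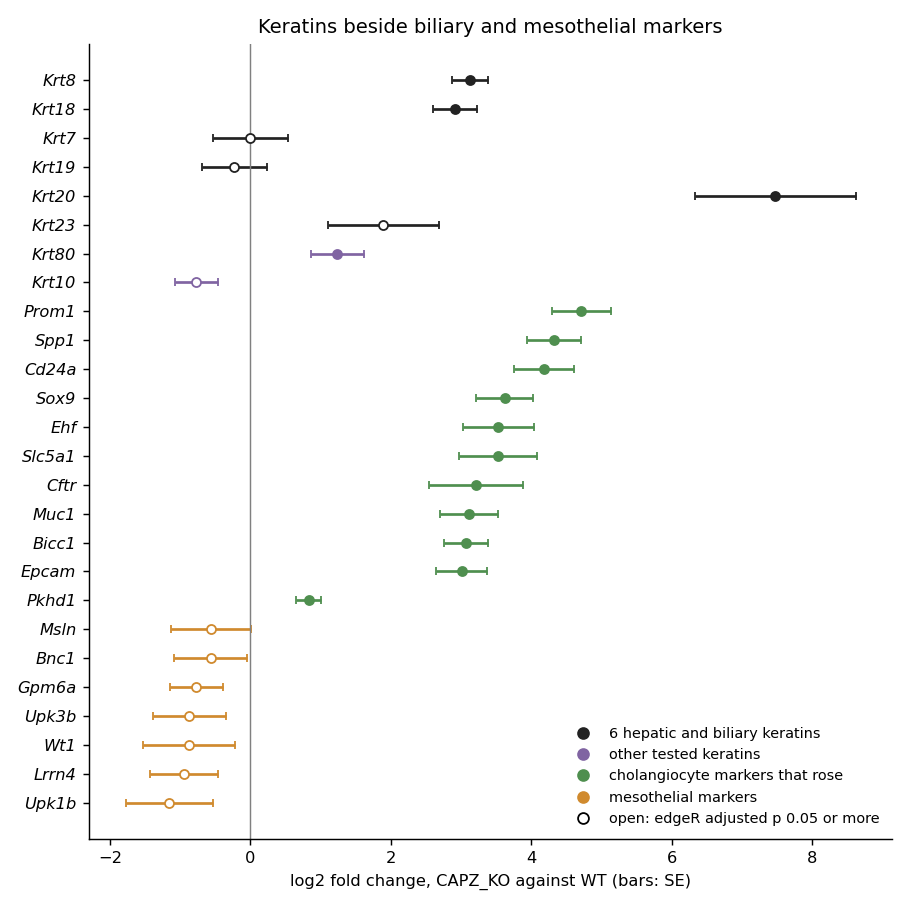
Log2 fold change of CAPZ_KO against WT with its SE for the 6 keratins (black), the other tested keratins (purple), the 11 cholangiocyte markers that rose (green) and mesothelial markers (orange), open where the edgeR adjusted p was 0.05 or more. Krt7 at −0.01 and Krt19 at −0.23 lie to the left of all 11 cholangiocyte markers shown, and all 7 tested mesothelial markers are open.

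Markers of mesothelial cells were compared with Krt7 and Krt19 library by library. The 7 markers found in the table summed to 82.2, 29.0, 26.2 and 67.6 CPM in WT replicates 1 to 4, and to 13.6, 24.8, 24.6 and 54.6 CPM in CAPZ_KO. WT replicates 1 and 4, which held the most Krt7 and Krt19, also held the most mesothelial signal, and CAPZ_KO replicate 4 was highest within its group for the markers and for Krt7, while Krt19 was highest in CAPZ_KO replicate 2. CAPZ_KO replicate 1 was lowest within its group for the marker sum, Krt7 and Krt19. The order did not hold across groups, since CAPZ_KO replicates 1 to 3 had smaller marker sums than WT replicates 2 and 3 but more Krt7 and Krt19, at 10.9, 15.7 and 11.4 against 5.13 and 6.96 CPM summed. All 7 markers were tested and none was at 0 in every library. Of these 0 rose and 0 fell (median −0.87 on the log2 scale), beside 22.4% called higher and 19.0% lower among all tested genes. Without CAPZ_KO replicate 4, 2 fell. Upk3b, a uroplakin of the mesothelium, was at 23.0, 7.57, 6.53 and 12.8 CPM in WT and at 2.75, 5.93, 5.08 and 13.3 CPM in CAPZ_KO. Lrrn4, a leucine-rich repeat membrane protein of the mesothelium, had a log2 fold change of −0.94 (edgeR adjusted p = 0.142). Cholangiocyte markers summed to 73.4, 54.6, 55.4 and 70.6 CPM in WT and to 1273, 545.5, 921.8 and 428.8 CPM in CAPZ_KO. In WT their sum too was higher in replicates 1 and 4, by a smaller factor, while in CAPZ_KO the libraries with the larger sums held less Krt7 and Krt19. Spp1, the largest part of the sum, had that same order in CAPZ_KO, as did Sox9, Cd24a and Bicc1. Epcam and Muc1 did not, and were highest in CAPZ_KO replicate 2, which held the most Krt19 of its group. The part of either cell type in the keratin values was not tested.

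**Figure D4:**
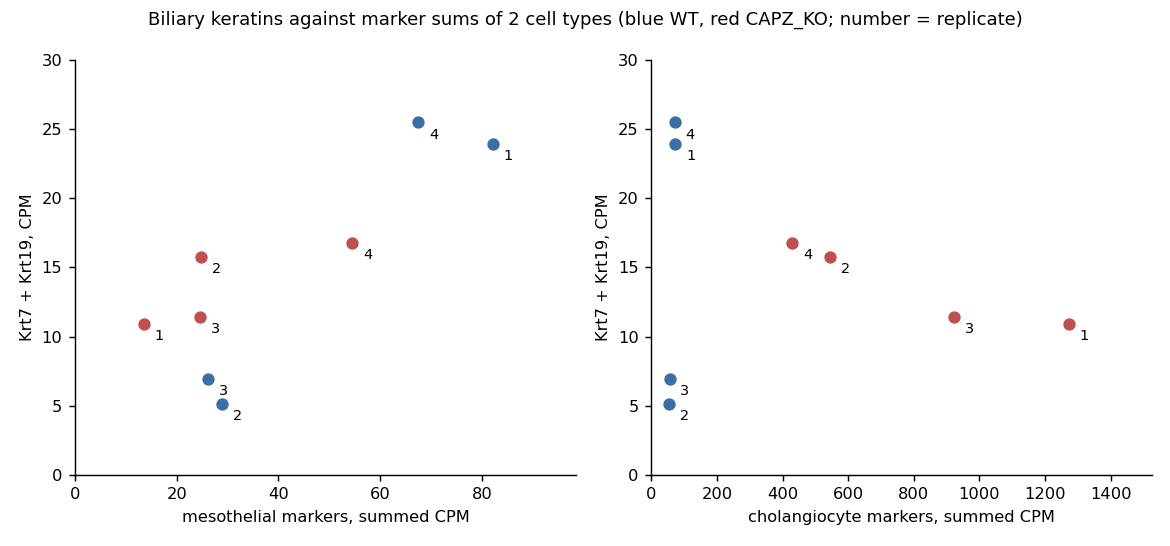
Sum of Krt7 and Krt19 in CPM against the summed CPM of mesothelial markers (left) and cholangiocyte markers (right), one point per library on linear axes, numbered by replicate. WT replicates 1 and 4 lie at the upper right of the left panel with 23.9 and 25.5 CPM of keratin, and CAPZ_KO replicate 1, at the far right of the right panel, holds 10.9 CPM.

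Krt20 was all but absent from WT liver. It had 0, 0, 0 and 1 read in WT replicates 1 to 4, and 82, 37, 190 and 30 reads in CAPZ_KO, or 3.69, 1.84, 11.5 and 1.53 CPM. Every CAPZ_KO library was above the WT libraries, and replicate 3 held more than the other 3 together. Over all libraries the ratio of 339 to 1 reads, corrected for library size, was 233.8 with an exact 95% interval of 41.7 to 9260 that covers counting error only. The fitted change was 7.47 ± 1.15 on the log2 scale (SE, edgeR adjusted p = 0.000804), a value that depends on the single WT read. It was 6.48 without CAPZ_KO replicate 3 and 9.26 without WT replicate 4, where no WT read is left, with adjusted p of 0.000417 and 0.0105. With so few WT reads it could hardly have been tested without differing. Among 6 intestinal epithelial markers, the transcription factors Cdx1 and Cdx2 had 0 reads in every library. Cdh17, an intestinal cadherin, had 0 reads in WT and 108, 25, 21 and 5 in CAPZ_KO, and Lgals4, a galectin, had 8, 4, 10 and 31 in WT and 4, 6, 1 and 5 in CAPZ_KO. With no filter on low counts 5423 genes were called over the whole table, 56.4% of them higher. Of the 6 markers 4 were then tested, of which 2 were called higher and 1 lower. Of the 2 that passed the filter, Vil1, an actin-bundling protein of microvilli with 0, 0, 2 and 3 reads in WT and 204, 87, 128 and 35 in CAPZ_KO, also passed the filter only through CAPZ_KO (fitted change 5.86), and Fabp2, a fatty acid binding protein, had −0.48 (edgeR adjusted p = 0.383).

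Krt23 was higher in most CAPZ_KO libraries but did not pass the test. It stood at 1.18, 2.24, 2.06 and 16.4 CPM in WT replicates 1 to 4 and at 16.6, 35.6, 19.8 and 11.2 CPM in CAPZ_KO. WT replicate 4 alone reached the CAPZ_KO range, in which replicate 4 was lowest. On the log2 scale the groups differed by 1.89 ± 0.792 (SE), which missed the threshold (edgeR adjusted p = 0.0888), and the exact permutation test gave p = 0.0571. Without WT replicate 4 it was 3.46 with an edgeR adjusted p of 0.000484. These replicates numbered 4 are the 2 female libraries. The 6 male libraries alone gave 3.67 (edgeR adjusted p = 0.00017), whereas the female CAPZ_KO library was below the female WT library. With 1 female a group, a difference between the sexes was not tested. WT replicate 4 also held much Krt7, Krt19 and mesothelial signal, but so did WT replicate 1, whose Krt23 level was the lowest of all 8 libraries. Limma-voom, another test across all genes, gave 2.48 with an adjusted p of 0.0147, so that the call depends on the method.

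**Figure D5:**
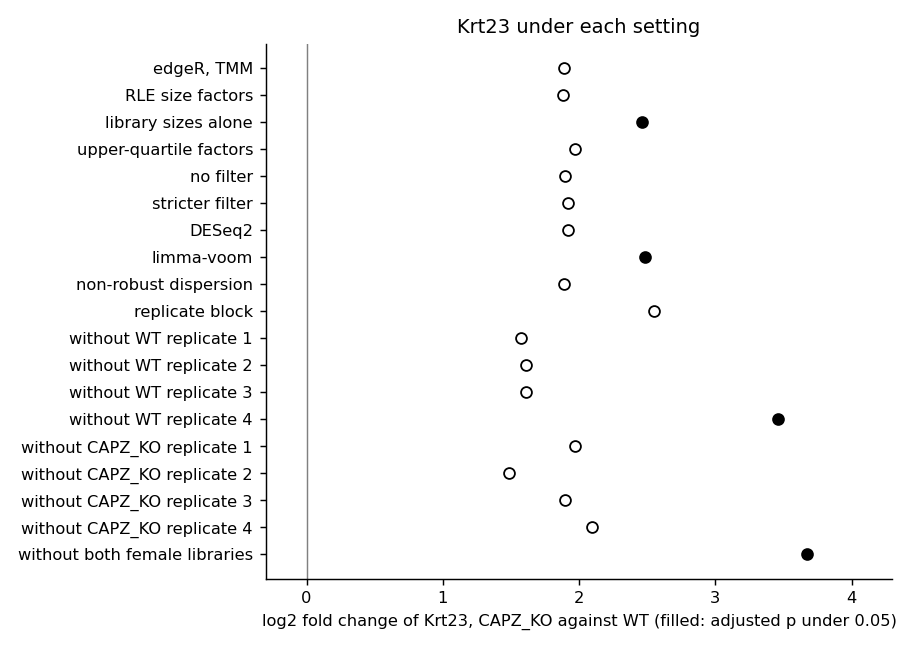
Log2 fold change of Krt23 by edgeR with TMM scaling (top) and under each alternative, filled where the adjusted p was under 0.05. Most values lie between 1.49 and 2.55, and leaving out WT replicate 4 or both female libraries moves them to 3.46 and 3.67.

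Levels were compared between genes per kilobase of the principal GENCODE transcript. In WT the order was Krt18 at 133.6 ± 56.2, Krt8 at 85.1 ± 26.1, Krt19 at 6.55 ± 4.48, Krt23 at 3.49 ± 4.67, Krt7 at 1.23 ± 0.920 and Krt20 at 0.00841 CPM per kilobase (SD, n = 4). Krt18 and Krt8 overlapped in range, as did Krt19 with Krt23 and Krt23 with Krt7, while the step from Krt8 to Krt19 and that from Krt7 to Krt20 did not. In CAPZ_KO the order was Krt18 at 1005 ± 234.1, Krt8 at 739.0 ± 137.4, Krt23 at 13.3 ± 6.69, Krt19 at 5.55 ± 0.972, Krt20 at 2.41 ± 2.42 and Krt7 at 1.21 ± 0.420. Krt23 then stood above Krt19 in all libraries, and Krt19, Krt20 and Krt7 overlapped with their neighbours. Krt7 is divided by 4094 bases, the longest transcript of the 6, so that its place rests on that annotation. Summed per kilobase, type I chains exceeded type II chains by a ratio of 1.37 to 1.96 in WT and 1.25 to 1.48 in CAPZ_KO. The 6 genes together took 0.0233% to 0.0435% of all reads in WT and 0.246% to 0.438% in CAPZ_KO.

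These genes were almost the whole keratin output of the tissue. The table held 52 keratin symbols, of which 30 had no read in any library, and the 6 took 98.0% to 99.9% of all keratin reads in each library. Of the other 46, only Krt10 and Krt80 passed the filter on low counts. Krt80, with 4, 9, 5 and 7 reads in WT, passed it through its CAPZ_KO reads alone, which favours a rise among genes so tested. Krt80, a type II epithelial keratin, was at 0.429, 0.592, 0.355 and 0.454 CPM in WT and at 0.766, 1.39, 0.726 and 1.48 CPM in CAPZ_KO (log2 fold change 1.24, edgeR adjusted p = 0.0247). That call was lost without WT replicate 3 or 4 or CAPZ_KO replicate 2 or 4 (edgeR adjusted p = 0.0519 to 0.077) and without both females (0.103). Krt10, a type I keratin of differentiated epidermis, had −0.77 (edgeR adjusted p = 0.0645). Krt17 and Krt5, basal and stress keratins of stratified epithelia chosen after their values were seen, had 0 reads in every WT library. Krt17 had 32, 7, 30 and 9 reads in CAPZ_KO replicates 1 to 4, at least 17.9-fold higher against a floor of 3 reads over the WT group. Krt5 had 19, 34, 3 and 9, at least 14.9-fold higher by the same floor. Krt14, another keratin of stratified epithelia, had 6, 1, 3 and 46 reads in WT and 1, 9, 14 and 9 in CAPZ_KO. Its mean was higher in WT (0.976 against 0.450 CPM), and its groups overlapped. Krt17, Krt5 and Krt14 did not pass the filter. With no filter 16 of the 46 were tested and 3 were called higher. In that setting 5423 genes were called over the table of 24421 symbols, 56.4% of them higher. A keratin with 0 reads in WT, such as Krt17 or Krt5, could differ there only by rising.

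The genes whose pattern over the 8 libraries lay nearest to each keratin were found by the root mean square difference of centred log2(CPM + 0.5), among tested genes with a mean of at least 5 CPM. Krt18 was nearest to Krt8 and Krt8 to Krt18, at 0.17, followed for both by Dusp10, a phosphatase of stress kinases, and Cystm1, a small membrane protein. Krt7 and Krt19 were likewise nearest to each other at 0.22, followed for both by S100a6, a calcium-binding protein. Igfbp6, which binds insulin-like growth factors, was next for Krt7 at 0.30, and the amino acid transporter Slc1a5 for Krt19 at 0.32. Krt20 had no match closer than Cgref1, a secreted calcium-binding protein, at 0.34, and Krt23 none closer than Abcc4, an exporter of organic anions, at 0.50. These distances are descriptions, and in the 3 genes that rose they are set largely by the group difference.

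Proteins that anchor keratin filaments rose in part. Of 15 plakin, desmosome and hemidesmosome genes, 14 were tested: 7 rose and 0 fell, beside 22.4% called higher and 19.0% lower among all tested genes, and their median was 0.76. Ppl, periplakin, a plakin that links keratin filaments to desmosomes, was at 11.5, 15.3, 17.1 and 24.5 CPM in WT and at 68.8, 94.997, 90.2 and 135.7 CPM in CAPZ_KO. It rose by 2.504 ± 0.266 (SE, edgeR adjusted p = 0.000106). Jup, plakoglobin, and Pkp2, plakophilin 2, both of the desmosomal plaque, rose by 0.82 and 0.70, and Itga6, an integrin chain of hemidesmosomes, by 1.65. Dst and Dsc2, a plakin and a desmosomal cadherin, had 0.14 and 0.19 (edgeR adjusted p = 0.661 and 0.525). Scaled by library sizes alone all 14 rose, since the median of the whole table is then 0.62.

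Other intermediate filament genes also rose, among them vimentin and desmin, which mark mesenchymal cells. Of 13, 8 were tested, of which 5 rose and 0 fell (median 1.29), beside the same 22.4% and 19.0% of all tested genes. Lmna, the lamin of the nuclear envelope in most cells, was at 37.7 to 56.1 CPM in WT and at 102.4 to 147.4 CPM in CAPZ_KO, and rose by 1.48 (edgeR adjusted p = 0.000133). Vim rose by 1.73, Des by 1.21 and Nes, nestin of progenitor and mesenchymal cells, by 2.02 (edgeR adjusted p = 0.0011, 0.00148 and 0.00235). Lmnb2 and Prph, a lamin and a neuronal filament, had 0.11 and −0.40 (edgeR adjusted p = 0.641 and 0.6). In the same libraries all 8 stellate cell markers rose, from summed levels of 322.9 to 391.5 CPM in WT to 852.6 to 1337 CPM in CAPZ_KO. Of 7 macrophage markers 5 rose, from summed levels of 313.0 to 575.2 CPM to 510.5 to 935.0 CPM, among them Trem2, a lipid receptor, by 3.28 and Ccr2, a chemokine receptor, by 3.08 (edgeR adjusted p = 0.000443 and 0.000547). The part of either cell type was not tested.

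Genes for proteins that bind keratins 8 and 18 or act on their aggregates were divided. Of 17 tested, 5 rose and 3 fell, beside 22.4% called higher and 19.0% lower among all tested genes, so that the counts are near the background. With library sizes alone 10 rose and 1 fell. The median was 0.13 (−0.03 without WT replicate 2). Tgm2, transglutaminase 2, which cross-links keratins in Mallory-Denk bodies, was at 223.5, 234.0, 171.3 and 137.1 CPM in WT and at 1314, 690.5, 1416 and 768.1 CPM in CAPZ_KO. It rose by 2.45 ± 0.284 (SE, edgeR adjusted p = 0.000154). Sqstm1, the p62 protein of the same aggregates, rose by 0.72, Ywhah, a 14-3-3 protein, by 1.505 and Tchp, the keratin-binding protein trichoplein, by 1.33 (edgeR adjusted p = 0.00814, 3.69e-05 and 0.00434). Stub1, a chaperone-linked ubiquitin ligase, had 0.04 (edgeR adjusted p = 0.838). The 3 that fell, named after their values were seen, were Dnajb6, a chaperone that binds keratin 18, Nbr1, an autophagy receptor, and Hspa1b, an inducible heat shock protein. They had −0.56, −0.48 and −1.75, and with library sizes alone Dnajb6 and Nbr1 had 0.06 and 0.15. Without WT replicate 3 Hspa1b had −1.15, and the call of Nbr1 was lost (edgeR adjusted p = 0.0521), as was that of Dnajb6 without WT replicate 4 or CAPZ_KO replicate 3 or with upper-quartile factors (edgeR adjusted p = 0.054, 0.0525 and 0.056).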

How the data were processed

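Liver poly(A) RNA was sequenced from stranded libraries, per the labels' protocols. The authors deposited unnormalized counts of reads for every gene symbol in each library. STAR 2.5.3a, featureCounts and edgeR are named with build mm10, per the submitters' processing notes, with no order. No annotation or strand setting is named there. An exon of Krt8 overlaps the noncoding Gm36026 and one of Krt7 overlaps Gm671, on opposite strands, and the processed pseudogene Krt8-ps, which is not used here, could share reads with Krt8.

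Genes were kept by filterByExpr (minimum count 10, total 15), scaled by TMM and tested with the quasi-likelihood test of edgeR 4.0.16 (R 4.3.3, robust dispersion, 8 libraries, no covariate), with Benjamini-Hochberg adjustment over 12985 genes and a threshold of 0.05. The SE is the log2 fold change divided by the square root of the F statistic. Ratios were tested by exact two-sided permutation with a pseudocount of 0.5 CPM. Both tests were checked on simulated data. Replicate pairs differed by a chi-square of at least 26.7 per degree of freedom, so none were duplicates. Alternatives were other scalings and filters, DESeq2 1.42.0, limma-voom (limma 3.58.1), non-robust dispersion, the replicate block, each library left out and, added after the data were seen, both females left out. Members and lists were chosen with earlier results of these data known. Per list, the 4 genes of smallest and 2 of largest adjusted p could be named; 2 of these are counted in their lists and not reported here.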

Additional observations from a re-analysis of the deposited data

Results flagged for a closer look

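Within each group of 4 libraries the highest and the lowest value were compared with the nearest of the others, over 30 sets of keratin levels and ratios, and 4 stood apart by Dixon's criterion at 95%. Chance alone marks about 1 in 20 such sets. Krt23 in WT replicate 4, at 16.4 CPM, was far above the other WT libraries. Krt20 in WT was marked because its single read, 0.0648 CPM, was the one value above 0. In CAPZ_KO, the log2 ratio of Krt23 to Krt8 was highest in replicate 2, at −5.36, and the log2 ratio of Krt7 to Krt19 was highest in replicate 4, at −0.35.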

How the results depend on the processing

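The rises of Krt8 and Krt18 kept their direction and their call in every alternative. Krt20 was called higher wherever it was tested, but with 1 WT read it could hardly have been otherwise. The stricter filter left it untested. Leaving out 1 library gave 2.95 to 3.303 for Krt8, 2.75 to 3.23 for Krt18, 6.48 to 9.26 for Krt20 and 1.49 to 3.46 for Krt23. Krt23 passed with library sizes alone (2.46, edgeR adjusted p = 0.0288), by limma-voom (2.48) and without both females (3.67). Krt7 was positive, and not called, with library sizes alone (0.60), upper-quartile factors (0.0615), no filter (0.0011), the stricter filter (0.0337), limma-voom (0.37), the replicate block (0.24) and without both females (0.12), and ranged from −0.32 to 0.36 with 1 library left out. Krt19 was positive, and not called, with library sizes alone (0.38), limma-voom (0.11), the replicate block (0.0059) and without both females (0.11), and ranged from −0.53 to 0.15 with 1 library left out. The cause was not tested. The log2 ratio of Krt20 to Krt8 differed by −0.22 between groups and by 1.77 with a pseudocount of 0.1, which sets it since Krt20 is near 0 in WT, and by 0.20 without both females (−0.67 to 0.0512 with 1 library left out). That of Krt23 to Krt8 differed by −0.77, by 0.26 without both females and by −1.32 to 0.15 with 1 library left out. Both missed the threshold throughout. Over all genes 5382 were called, 8365 with library sizes alone, where 91.6% of calls were higher against 54.1%, and 4485 to 5590 with 1 library left out. Same-numbered libraries of the 2 groups had deviations that correlated at 0.245, 0.0148, 0.0733 and 0.3. Of the 4 WT libraries 3 correlated best with their own number, and both female libraries are numbered 4. Whether the numbers mark pairs is not settled by these values. With the replicate block 5385 genes were called and Krt8 and Krt18 remained called, as did Krt20, with the limit given above. Depth limits Krt20 most, with 1 read in all WT libraries.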
